A study of Homo sapiens with 2 samples.

Results

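Messenger RNA levels of the classical cadherins, the catenins, afadin and the adhesion molecule EPCAM were measured in H9 cells of substate 1 and of substate 2. The members were 10 genes of the adherens junction (CDH1, CDH2, CDH3, CDH11, CTNNA1, CTNNB1, CTNND1, JUP, EPCAM and AFDN) out of 22439 genes named on the array. They were chosen as genes of this junction, with earlier results of these data known, and no signal limit was set for their probes. Every non-control probe whose RefSeq accession mapped to one of them was used, which gave 18 probes. H9 is an established human embryonic stem cell line. Per the labels, the cells of both arrays were grown on Matrigel, a basement membrane preparation, in TeSR-E8 medium. The substate 1 array held RNA of cells at passage 35 and the substate 2 array RNA of cells at passage 50. Colony morphology, the keratan sulphate epitope R-10G and vimentin staining define the substates in the study, and how the cells of each RNA sample were separated is not given in the sources used here. The slide and the scan were shared. Each substate had 1 array, so passage and substate cannot be told apart, no test between the substates was possible, and every difference below compares these 2 libraries of 1 cell line.

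The adherens junction joins neighbouring cells. Classical cadherins span the membrane and bind cadherins of the next cell, and their cytoplasmic tails hold beta-catenin or plakoglobin together with CTNND1. Alpha-catenin links that complex to actin, and afadin links a parallel set of adhesion molecules, the nectins, to actin. Primed human pluripotent stem cells grow as an epithelium held together by E-cadherin, and an exchange of E-cadherin for N-cadherin is a classical mark of the epithelial-to-mesenchymal transition. Beta-catenin also acts in the nucleus as the effector of WNT signalling. In bulk RNA, fewer cells that express a gene and less RNA per cell cannot be told apart.

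The share of the 60901 non-control spots that stood well above background was 57.4% for substate 1 and 54.7% for substate 2, and no spot was saturated. The 75th percentile of the probe signals, to which each array was scaled, was 313.7 and 275.4, so unscaled signals of substate 2 read somewhat low. Signals are given in scanner units, and differences are substate 2 minus substate 1 of the scaled log2 signals. Probes printed 10 times on each array showed the noise between spots. For a difference between single spots it had an SD of 0.07 for signals over 1000 (229 probes), 0.10 for signals of 100 to 1000 (52 probes) and 0.26 for signals under 100 (10 probes). This noise covers printing and hybridisation only, so differences between cultures, RNA preparations or labelling reactions lie outside it. The scanner's own error estimates gave a wider error of the difference for bright probes, 0.20 for CDH1, JUP and the repeated CTNNB1 probe alike. The spot noise and standard errors quoted below leave that error out. The 16001 genes measured on both arrays, that is by a probe well above background on each, had a median difference of 0.08 and an SD of 0.38. Different probes of the same gene lay a median of 0.16 apart. The labelled cell type was borne out by its markers, since POU5F1, NANOG, SOX2, LIN28A, LIN28B, DNMT3B, DPPA4 and PODXL were all measured on both arrays, with differences between -0.35 and 0.42, while TDGF1 and ZFP42 had no named probe.

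All 18 member probes were well above background on both arrays. By gene, 4 members were lower in substate 2 and 6 were higher. That split was near the one over all genes, since 40.2% of the 16001 genes measured on both arrays were below 0. The direction of CTNNA1 and CTNND1 changed with the scaling. The members did not move as a block. CDH1, CDH3 and EPCAM were lower, CDH2 and CDH11 were higher, and most of the cytoplasmic partners differed little. The median over the 10 genes was 0.02, beside 0.08 for all genes measured. A fold of 2 or more lower was seen for 1 member, CDH1, where 1.6% of the 16965 genes measured on at least 1 array had such a probe, and a fold of 2 or more higher for none, where 1.77% of genes had one. By probe, 1 of the 18 was 2-fold or more lower and none higher, beside 1.67% and 1.55% of the 33166 probes measured on at least 1 array.

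**Figure D1:**
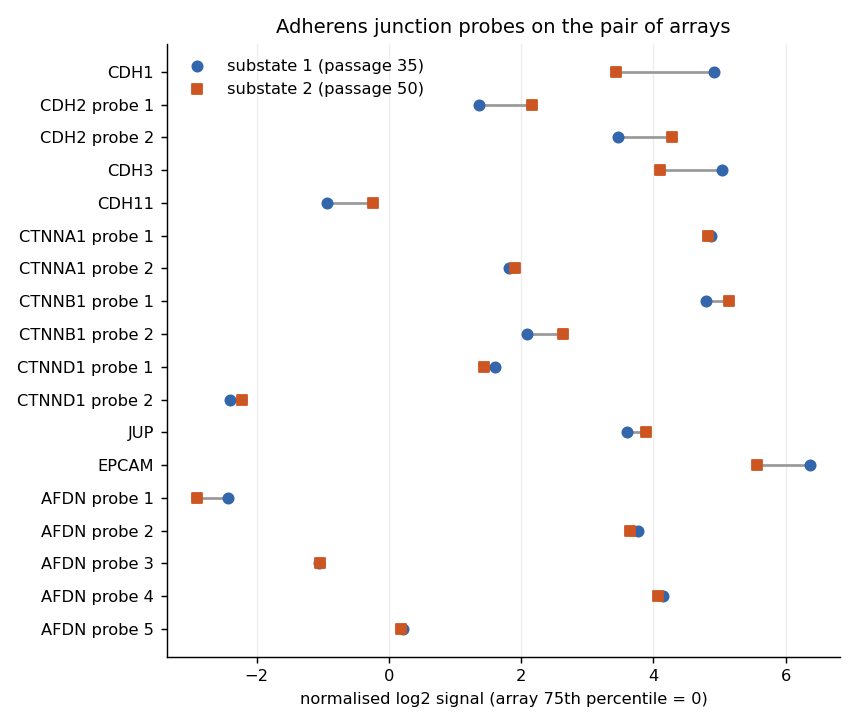
Normalised log2 signal of each of the 18 member probes in substate 1 (circles) and substate 2 (squares), with each array's 75th percentile at 0; a grey line joins the arrays. Lengths of the lines can be compared, whereas levels of different probes cannot. The longest line is that of CDH1, from 4.91 to 3.44, followed by CDH3 (5.04 to 4.11), and the lines of the CTNNA1 probes are among the shortest.

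CDH1 and CDH3 encode E-cadherin and P-cadherin, the type I cadherins of epithelia. CDH1 was measured by a single probe (A_23_P206359) printed 10 times. In substate 1 its spots ranged from 9040 to 10025 around a median of 9456, with a mean of 9463 ± 335 (SD over 10 spots). In substate 2 they ranged from 2745 to 3150 around a median of 3032, with a mean of 2993 ± 119.5 (SD over 10 spots). The lowest spot of substate 1 was far above the highest spot of substate 2, so the spots of the arrays did not overlap. They are repeats of 1 library per array, and the share of other repeated probes without overlap was not counted. The normalised log2 signal was 4.91 in substate 1 and 3.44 in substate 2, a difference of -1.47 with a standard error of 0.02 from the spots alone, or 2.78-fold lower in substate 2. At the 10 positions on the array, the difference ran from -1.56 to -1.33. The Z-score, which sets a difference against the mean and SD of all 58201 probes as in the methods of the study, was -2.44. Among member probes it alone was past the limits of 2 in either direction, where 3.3% of all probes were at or below the lower limit and 3.03% at or above the upper one. Among probes measured on both arrays the shares were 0.622% and 0.355%.

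**Figure D2:**
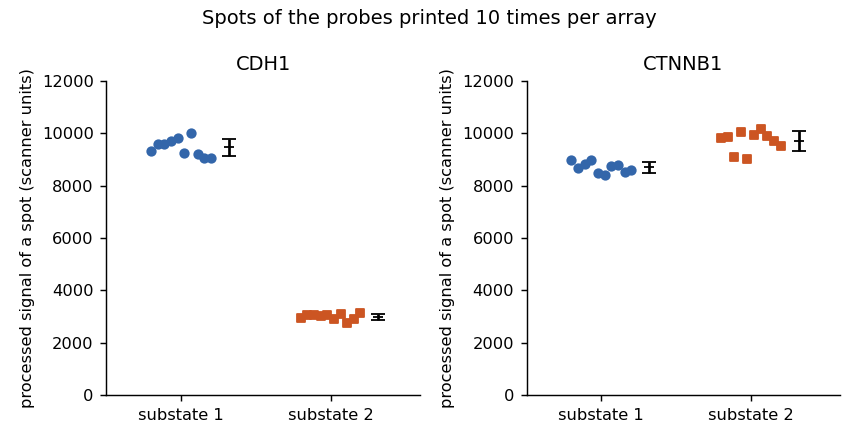
Processed signal (scanner units, axis from 0) of the 10 spots of the CDH1 probe and of the repeated CTNNB1 probe on each array, with the mean and SD over spots at the right of each cloud. CDH1 spots lie between 9040 and 10025 in substate 1 and between 2745 and 3150 in substate 2, whereas the CTNNB1 spots shift slightly upwards.

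CDH3 had a signal of 10312 in substate 1 and 4744 in substate 2 by its 1 probe, which was printed once. The signal was clearly lower on the substate 2 array. The difference was -0.93, or 1.91-fold lower, with a spot noise of 0.07, and the Z-score was -1.59. Only 1.64% of the probes measured on both arrays had a lower value. CDH3 stood just inside a 2-fold difference under the main scaling and passed it under quantile normalisation (-1.06) and loess centring (-1.07). The difference of CDH1 was larger in size than that of CDH3 by 0.54, with a spot noise of 0.08 for that comparison.

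CDH1 and CDH3 are neighbours on chromosome 16, with CDH3 first and no other measured protein-coding gene between them. The genes directly on either side were higher. ZFP90, before CDH3, differed by 0.20, and TANGO6, after CDH1, by 0.55. The next measured genes outwards, SMPD3 and HAS3, differed by -0.43 and 0.01. The 707 measured genes of chromosome 16 had a median difference of 0.10, and the chromosomes of the other members had medians between 0.04 and 0.13.

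N-cadherin and cadherin 11 stood on the other side. CDH2 encodes N-cadherin, the type I cadherin of neural and mesenchymal tissue. Its first probe (A_23_P38732) read 803 in substate 1 and 1239 in substate 2, and its second (A_33_P3214159) read 3451 and 5371. Both were brighter in substate 2 although that array was dimmer as a whole. Their differences were 0.81 and 0.83, with spot noise of 0.10 and 0.07, and lay only 0.01 apart. The gene mean was 0.82, or 1.76-fold higher, and its probes had Z-scores of 1.17 and 1.19. CDH11 encodes a type II cadherin of mesenchymal cells. Its probe read 164 in substate 1 and 234 in substate 2, a difference of 0.70 or 1.62-fold higher, with a spot noise of 0.10. The CDH11 and CDH2 differences were within about 1 spot noise of each other (-0.12, noise 0.12). N-cadherin relative to E-cadherin was thus higher in substate 2 by 2.29 on the log2 scale (spot noise 0.07), a 4.90-fold change in the ratio. CDH1 entered it with -1.47 and CDH2 with 0.82. Against CDH3 the shift of CDH2 was 1.75.

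**Figure D3:**
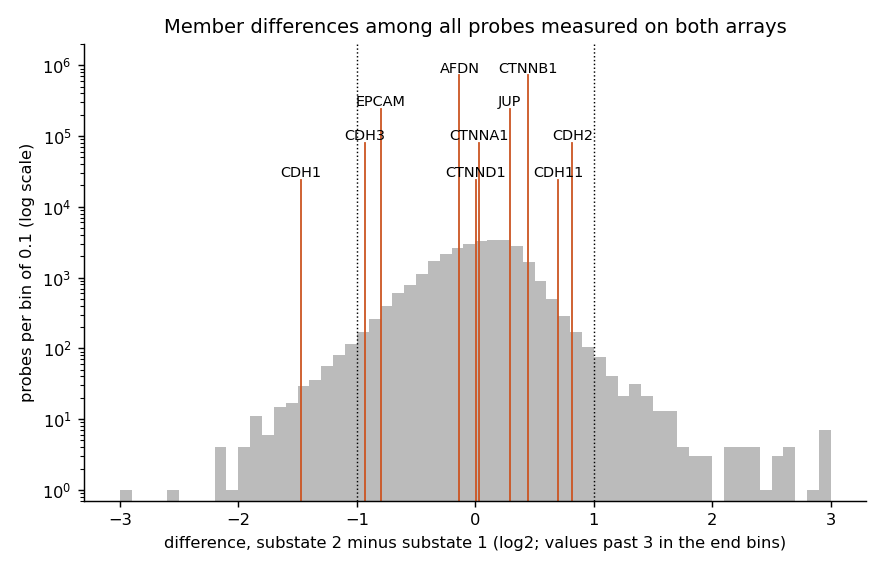
Number of probes in bins of 0.1 of the log2 difference (substate 2 minus substate 1, log axis for the count) over the 29883 probes measured on both arrays, with the gene mean of each member as a vertical line and 2-fold limits dotted. CDH1 (-1.47) lies in the lower tail, CDH3 and EPCAM at its edge, CDH2 (0.82) and CDH11 (0.70) on the opposite side, and the alpha-catenin gene CTNNA1 (0.03) near the centre.

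Of the 14 other classical cadherins, 7 were measured on both arrays and 7 were near background on both. The measured genes had a median difference of 0.40, beside 0.08 for all genes, with 6 above 0 and 1 below. This list and the gene lists below were drawn up with earlier results of these data known. Their medians and shares therefore only describe the listed genes. CDH6, a type II cadherin of developing kidney and neural crest, read 36.8 in substate 1 and 230 in substate 2. It was well above background on both arrays, and the difference was 2.83, or 7.12-fold higher, with a spot noise of 0.26. It was larger in size than that of any member. CDH10, a type II cadherin of the brain, read 21.5 in substate 1 and 63.0 in substate 2, a difference of 1.74 or 3.34-fold higher with the same noise. Both signals were dim in substate 1. Under normexp background correction, which compresses dim probes, CDH6 differed by 1.70 and CDH10 by 0.74. Each was measured by 1 probe printed once. R-cadherin (CDH4) differed by 0.41, CDH22 by 0.40, CDH15 by 0.34, CDH5 by 0.32 and CDH24 by -0.08. The genes near background were CDH7, CDH8, CDH9, CDH12, CDH18, CDH19 and CDH20. With the members included, 11 of 18 classical cadherins were measured on both arrays. Of these, CDH1, CDH3 and CDH24 were below 0 and the other 8 were above it, where 40.2% of all genes measured were below 0. Among the 6 measured type II cadherins the median was 0.55.

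Of 10 remaining cadherins of the family, which do not bind beta-catenin in the classical way, 5 were measured and none differed by 2-fold or more. Their median was -0.38, with 4 of 5 below 0 beside 40.2% of all genes, and the difference from the classical cadherins was not tested. CDHR3 differed by -0.46 and CDHR1 by -0.42. The 3 probes of CDH23 ran from -0.38 to 0.49, so its mean of 0.05 is uncertain.

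EPCAM, a surface glycoprotein of epithelia and of undifferentiated stem cells, had a signal of 25883 in substate 1 and 13078 in substate 2. Its 1 probe remained far above background on both arrays and read clearly lower in substate 2. The difference was -0.80, or 1.74-fold lower, with a spot noise of 0.07 and a Z-score of -1.37, and 2.74% of probes measured on both arrays lay lower. It differed from CDH3 by 0.14 (noise 0.10) and from CDH1 by 0.68 (noise 0.08). EPCAM therefore differed less than CDH1, and its distance from CDH3 was near the spot noise. CALM2, the measured gene just before it on chromosome 2, differed by 0.47.

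Of 9 genes tied to EPCAM, 8 were measured and 1 of them was 2-fold or more lower, where 1.6% of all genes had such a probe. Their median was -0.59, and 6 of the 8 were below 0, beside 40.2% of all genes. Since the list was drawn up with earlier results known, that share is no independent excess. CLDN7, the claudin that binds EPCAM directly, read 6426 in substate 1 and 2267 in substate 2, a difference of -1.32 or 2.49-fold lower (noise 0.07). ST14, the matriptase protease that cleaves EPCAM, differed by -0.98, and its inhibitors SPINT1 and SPINT2 by -0.93 and -0.62. The tetraspanin CD9 differed by -0.30. FHL2, a partner of the cleaved EPCAM tail, differed by 0.36 and CD44 by 0.16, and TSPAN8 was near background.

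The member catenins showed smaller differences than the member cadherins. CTNNB1 encodes beta-catenin. Its first probe (A_23_P29495) was also printed 10 times, with spots from 8394 to 8968 in substate 1 and from 9020 to 10176 in substate 2. The spots did not overlap, and substate 2 was the brighter. As for CDH1, these spots are repeats of 1 library per array, and how many other repeated probes also lacked overlap was not counted. Among probes measured on both arrays, 17.4% had a higher difference than this probe. The means were 8698 ± 199 and 9710.5 ± 389 (SD over 10 spots), and the difference was 0.35 with a standard error of 0.02 from the spots. At the 10 positions it ran from 0.23 to 0.43. The second probe read 1335 in substate 1 and 1708 in substate 2, a difference of 0.54 with a spot noise of 0.07. The 2 probes went the same way but lay 0.20 apart, beside a median of 0.16 for pairs of probes of a gene, and 9.89% of all genes measured were higher than the mean of 0.44. JUP encodes plakoglobin, the close relative of beta-catenin that also serves desmosomes. It read 3792 in substate 1 and 4065 in substate 2. Its difference of 0.29 (noise 0.07) was exceeded by 24.5% of genes.

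CTNNA1 encodes alpha-catenin. Its probes read 9139 and 1101 in substate 1, and 7802 and 1032 in substate 2. The differences of -0.04 and 0.09, each with a spot noise of 0.07, lay on either side of 0, so no direction could be given at this precision. CTNND1 encodes the catenin that binds the cadherin tail next to the membrane and slows its removal from the surface. One probe read 949 in substate 1 and 742 in substate 2, and the other read 59.5 and 59.0. The differences were -0.17 (noise 0.10) and 0.18 (noise 0.26), opposite in sign and designed on different transcript records of the gene. The latter probe was dim, and no direction could be given for CTNND1 either. Relative to E-cadherin, beta-catenin was higher in substate 2 by 1.92 on the log2 scale (noise 0.04).

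**Figure D4:**
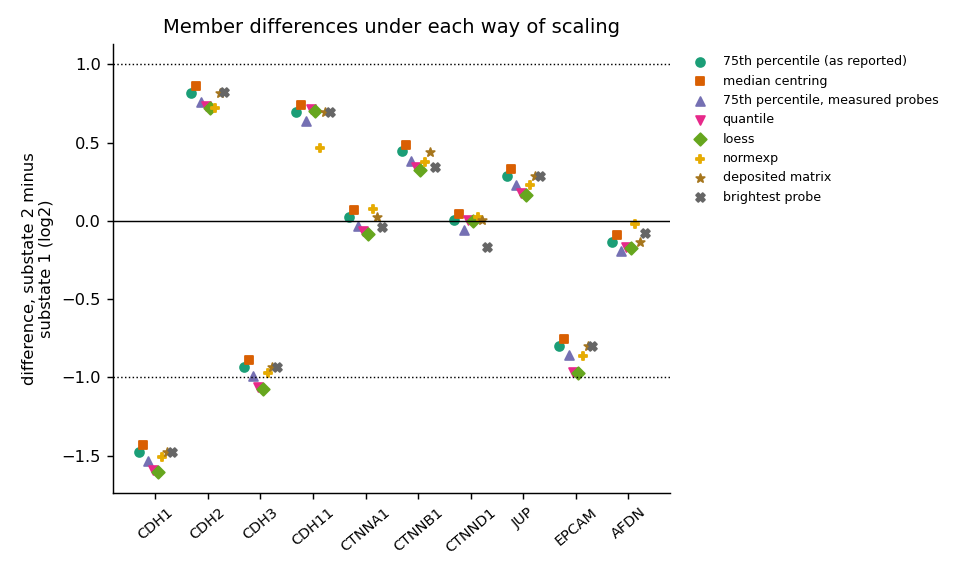
Gene difference (log2, substate 2 minus substate 1) of the 10 members under the scaling used here and 7 other ways of computing it; dotted lines mark 2-fold. CDH1 stays below the 2-fold line throughout, CDH3 crosses it under quantile normalisation and loess centring, CTNNA1 and CTNND1 straddle 0, and CDH11 is lowest under normexp background correction.

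The other catenins and the actin linkers of the junction were close to the bulk of genes. Of 14 genes, 13 were measured, none differed by 2-fold, and the median was 0.06. LIMA1, an actin-bundling protein that joins the cadherin complex to actin, had the largest size of difference (-0.49), followed by AJUBA (-0.44), a LIM protein of the junction. Vinculin (VCL) differed by -0.36 and zyxin (ZYX) by 0.40. The neural alpha-catenin CTNNA2 differed by 0.38 and the neural delta-catenin CTNND2 by 0.07, and CTNNA3 was near background. The genes for cadherin turnover and processing were as close to the bulk, with a median of 0.05 over 9 of 10 measured genes and none past 2-fold. The largest differences there were those of RAB11A (0.35), a recycling GTPase, and CBLL1 (0.31), an E-cadherin ubiquitin ligase.

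Genes of the beta-catenin complex and its transcriptional readout had a median of 0.12 over 15 of 18 genes measured. LEF1, a DNA-binding partner of beta-catenin, read 86.4 in substate 1 and 157 in substate 2. Its difference was 1.05, or 2.06-fold higher (noise 0.10), and 0.66 under normexp correction. It was the only gene of this list past 2-fold, where 1.77% of all genes had a probe as much higher. The feedback genes did not share a direction. AXIN2 differed by 0.66 (probes 0.59 and 0.72) and NKD1 by 0.54, whereas RNF43 differed by -0.73 and ZNRF3 by -0.19. SP5 and LGR5 were near background on both arrays.

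AFDN, afadin, had the most probes of any member, 5 in all. The brightest pair read 5549.5 and 4289 in substate 1, and 4628 and 3455 in substate 2, with differences of -0.07 and -0.12. The next pair read 364 and 150.1 in substate 1, and 313 and 134 in substate 2, with differences of -0.03 and 0.02. The dimmest read 57.8 and 36.9, a difference of -0.46 with a spot noise of 0.26. The 4 brighter probes thus lay between -0.12 and 0.02, and the gene mean of -0.13 was pulled down by the dimmest probe. Among genes with several measured probes, 14.2% had a wider range between probes than AFDN. The 4236 genes with several measured probes gave only 6685 pairs of probes, so most of them had fewer probes than AFDN. A range tends to widen with the number of probes.

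Of 12 nectins and other partners of afadin, 11 were measured, with a median of 0.11 and 7 above 0. Both were near the values over all genes, a median of 0.08 with 40.2% below 0. LMO7 had a probe lower by 2-fold or more, as did 1.6% of all genes, though its gene mean was -0.53. Of its 3 probes, 2 were measured on both arrays and disagreed, one lying just past 2-fold lower and the other at -0.06. The third stood above background only in substate 1, with a bound of at least 2.30-fold lower. NECTIN2 differed by -0.37, NECTIN3 by 0.11 (a further probe, dim in substate 2, had a bound of at least 1.39-fold lower), NECTIN1 by -0.07, and NECTIN4 was near background. RAP1B, a small GTPase that acts through afadin, differed by 0.33.

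**Figure D5:**
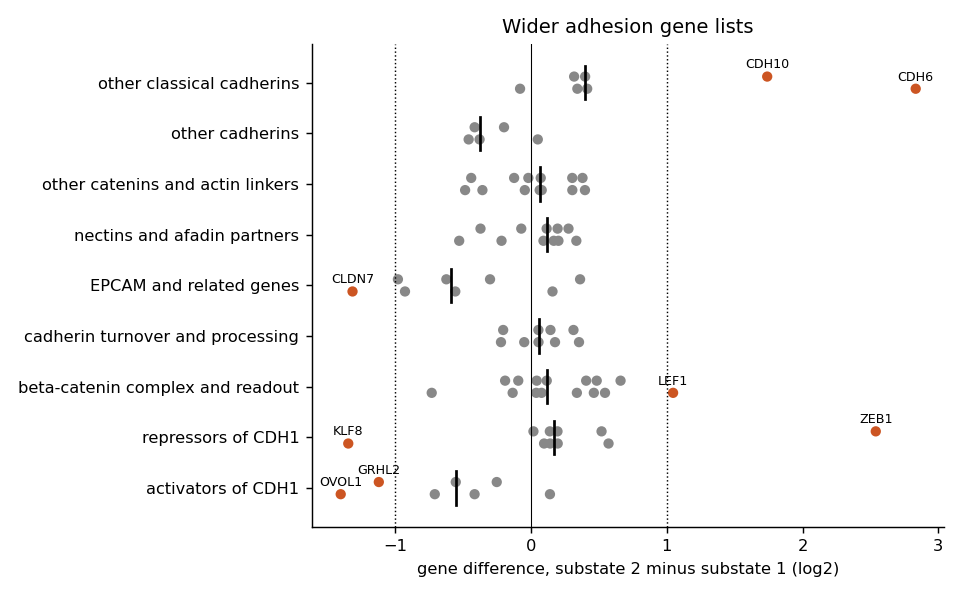
Log2 difference (substate 2 minus substate 1) of each gene measured on both arrays in 9 wider lists of adhesion genes and regulators; black bars are list medians, dotted lines mark 2-fold, and genes past it are coloured and named. The classical cadherins reach furthest to the right (CDH6, 2.83). The medians of the EPCAM list (-0.59) and of the list labelled activators of CDH1 (-0.55) lie left of 0. The latter holds genes known to favour the epithelial state, not only direct activators of CDH1.

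Repressors of CDH1 and genes known to favour the epithelial state were looked at beside CDH1. Of 11 repressors, ZEB1 differed by 2.54 over 2 probes (2.41 and 2.67) and ZEB2, whose probes were measured in substate 2 only, was at least 5.39-fold higher by the brightest of them. Among all genes, 1.77% had a probe 2-fold or more higher and 1.6% a probe as much lower. SNAI1 (0.20), SNAI2 (0.02), TWIST1 (0.52), TWIST2 (0.57), TCF3 (0.14) and TCF4 (0.14) differed by less than 2-fold. KLF8 was 2.54-fold lower by 1 probe, and its other probe was at least 1.15-fold lower. Of 10 genes known to favour the epithelial state, 7 were measured on both arrays, with a median of -0.55 beside 0.08 for all genes. Of the 7, 6 were below 0, beside 40.2% of all genes. OVOL1 was 2.64-fold lower (-1.40) and GRHL2 was 2.18-fold lower (-1.12), while ESRP2 and ESRP1 differed by -0.71 and -0.55. GRHL1 differed by -0.42, GRHL3 by -0.25 and ELF3 by 0.14. These signals were dim. By its probe measured on both arrays, OVOL1 read 173 in substate 1 and 57.5 in substate 2 (noise 0.26). GRHL2 read 347 and 140, and KLF8 206 and 71.0, each with a noise of 0.10. Under normexp correction OVOL1, GRHL2 and KLF8 differed by -0.84, -0.85 and -0.82, inside 2-fold, and ZEB1 by 1.63.

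ZEB and SNAI proteins are known to bind the E-box CACCTG, which reads CAGGTG on the other strand. The RefSeq promoter windows for GRCh38.p14 run from 250 bases before to 50 bases after a transcript start. They held 10 promoters of 5 members (CDH2, CTNNA1, CTNNB1, JUP and AFDN). CDH1, CDH3, CDH11, CTNND1 and EPCAM had no entry. Of the 35116 windows in the table, 20.6% held this box at least once on either strand, 3.49% at least 2 times and 0.168% at least 4 times. The CDH2, CTNNA1 and CTNNB1 windows held none. One of the JUP windows held 2 matches and the AFDN window held 4, and no match overlapped another. The upstream bases of this pair are shown because they are the member windows with a match. They run 5′ to 3′ in the direction of the gene, with each box in capitals. The AFDN stretch is chr6:167827385-167827634 on the + strand and the JUP stretch is chr17:41785977-41786226 on the - strand.
AFDN: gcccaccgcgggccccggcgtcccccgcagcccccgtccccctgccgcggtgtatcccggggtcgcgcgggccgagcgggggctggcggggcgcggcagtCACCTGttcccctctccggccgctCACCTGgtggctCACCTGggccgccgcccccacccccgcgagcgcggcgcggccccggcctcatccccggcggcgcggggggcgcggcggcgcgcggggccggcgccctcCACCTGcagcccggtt
JUP: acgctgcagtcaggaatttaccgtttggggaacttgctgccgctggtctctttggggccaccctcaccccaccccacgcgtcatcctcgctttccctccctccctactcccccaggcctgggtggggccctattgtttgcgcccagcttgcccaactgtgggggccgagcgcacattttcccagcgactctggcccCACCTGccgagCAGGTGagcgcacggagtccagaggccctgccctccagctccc
Counted from the transcript start, the AFDN matches begin at positions -150, -126, -114 and -16 and the JUP matches at positions -54 and -43. With these boxes, AFDN differed by -0.13 and JUP by 0.29 between the substates, both close to the bulk of genes. A match of letters does not show that the site is used.

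Markers of other cell types were read beside the member differences. Of 8 neural progenitor markers, NES (0.38) and FABP7 (1.44) were measured on both arrays, POU3F2, SOX1 and HES5 on 1, and the others, PAX6 and NEUROG2 among them, were near background. FABP7 and POU3F2 (at least 13.3-fold higher) were past 2-fold, where 1.77% of all genes had a probe as much higher. The unscaled signal, summed over the markers' probes measured on both arrays, was 7547 in substate 1 and 8899 in substate 2. Of 10 fibroblast and mesenchyme markers, 6 were measured on both arrays with a median of 0.05 and none past 2-fold. Their summed signal was 53398 and 42983, of which THY1 alone gave 48204 and 39218, and LUM, DCN, COL3A1 and POSTN were near background. Of 8 mesendoderm markers 1 was measured on both arrays (FOXA2, 0.77), with summed signals of 44.6 and 66.9. MESP1 was at least 2.21-fold higher, and TBXT, MIXL1, EOMES, GSC, SOX17 and GATA6 were near background. Of 7 markers of trophectoderm and surface epithelium 1 was measured on both arrays (KRT7, 0.16), with summed signals of 3039 and 2988. CGA was at least 2.12-fold higher, and GATA3, HAND1, TP63, KRT5 and KRT14 were near background. The part of the neural markers in the CDH2 and CDH6 differences was not tested.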

How the data were processed

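For each of the 2 arrays the authors deposited the scanner's table of spots. Its processed intensity had been corrected for background by Feature Extraction 11.5.1.1 under protocol GE1_1105_Oct12, per the file headers. The array was annotated on hg19. They also deposited log2 values, shifted by the 75th percentile in GeneSpring GX per their methods. The deposited log2 values equalled those computed here up to a constant per array, for 100% of 58201 probes within 0.01.

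Here, outlier spots (71 and 101) were dropped, intensities were floored at 1 and put on the log2 scale, spots of a probe were averaged, and each array's 75th percentile was subtracted. Gene values were means over probes well above background on both arrays. Other probes well above background on 1 array were given a bound against the dim array's lowest such signal or, where higher, the probe's own signal there. Probes near background on both have no fold. Probes were named by unversioned RefSeq accession (GRCh38.p14 table), which matched 53.4% of probes, and other probes of these genes may be unnamed. Quantile normalisation, loess centring (span 0.3) and normexp (offset 50, on the median spot signal) used limma 3.58.1 in R 4.3.3. All else was run in Python 3.11.15. The scaling, the difference and the 2-fold rule were tested on simulated data, for probes well above background on both arrays, and the other steps were not. The members and lists were chosen with earlier results of these data known. Named were all members and, from each wider list, genes with a probe 2-fold or more apart or otherwise the 2 largest differences. Further list genes were named after their values were seen, as were the chromosomal neighbours. Values of some list genes and neighbours are not reported here. The number of arrays limits the precision.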

Additional observations from a re-analysis of the deposited data

How the results depend on the processing

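No paired analysis was possible because there was a single array for either substate. Of 10 alternatives, 3 (both probe filters and keeping outlier spots) left every member unchanged. Over all of them, CDH1 differed by -1.61 to -1.43, CDH3 by -1.07 to -0.89, EPCAM by -0.97 to -0.75, CDH2 by 0.72 to 0.86, CDH11 by 0.47 to 0.74, CTNNB1 by 0.33 to 0.49, JUP by 0.17 to 0.33 and AFDN by -0.19 to -0.02. CTNNA1 (-0.08 to 0.07) and CTNND1 (-0.17 to 0.05) changed sign. The count of members 2-fold or more lower was 2 in place of 1 under quantile normalisation and 2 under loess centring. Member probes past the lower Z-score limit numbered 3 in place of 1 (CDH1, CDH3 and EPCAM) when the Z-score was taken over the probes measured on both arrays, 3 with an SD from the median absolute deviation, and 3 under normexp correction. Past the upper limit were 1 (CDH2) in place of 0 over probes measured on both arrays and 2 (both CDH2 probes) under normexp correction. Over the wider lists, 5 genes had a probe 2-fold or more higher and 5 a probe as much lower, LMO7 among the latter by probes that disagreed. Of all genes, 1.77% and 1.6% had such a probe. Normexp correction gave 2 and 2, since it compresses dim probes, and counting also probes near background gave 9 and 8. The other counts of calls stayed within 1.5 times, and no scaling moved the median of all genes by more than 0.06. An alternative naming of probes by a gene name column was not run, since the columns read here hold accessions only. Normexp was to use the mean spot signal and used the median.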
